A study of Mus musculus with 12 samples.

Results

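The integrins and cadherins are the receptors by which a fibroblast holds on to the matrix around it and to the cells beside it. Genes were taken from the count table by symbol, as alpha integrins (Itga followed by a number or letter), beta integrins (Itgb followed by a digit) and cadherins (Cdh followed by a number). This gave 49 of the 24100 genes in the table, of which 18 were alpha integrins, 8 were beta integrins and 23 were cadherins. Other members of the cadherin superfamily, such as protocadherins and desmosomal cadherins, do not carry these symbols and were not members.

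Integrins are pairs of an alpha and a beta subunit. The alpha subunit largely sets which ligand is bound, such as fibronectin, collagen or laminin, and the beta subunit couples the pair to actin through talin and kindlin in focal adhesions. Classical cadherins bind cadherins of the neighbouring cell and are tied to actin by catenins. Fibroblasts are known for the fibronectin receptor of Itga5 and Itgb1 and for the mesenchymal cadherins Cdh2 (N-cadherin) and Cdh11 (OB-cadherin), whereas Cdh1 (E-cadherin) is the cadherin of epithelia.

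RNA was sequenced from mouse embryonic fibroblasts (MEFs) of 2 lines. The study's methods describe its MEF lines as taken from individual mothers, without naming the mothers of these 2. The WT groups were Rtf2+/+ and the RTF2-deficient groups were Rtf2-/lox, in which one allele is already deleted and the other is removed by Cre recombinase. Every group, WT included, received Cre recombinase from a retrovirus 72 hrs before harvest. According to the study's methods the cells had been immortalized with SV40 large T antigen, and the groups compared were littermates. Each of the 4 groups had 3 libraries, which the study calls technical replicates, so p-values measure the spread between these libraries and the 2 lines are the only replicates of embryos. The number of embryos behind a line and genotype is not given in the sources used here. Total counts lay between 39360167 and 44695002 per library.

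Rtf2, the targeted gene, stood between 44.8 and 57.8 CPM (counts scaled by TMM-normalized library size) in the 6 WT libraries and between 5.44 and 6.66 CPM in the 6 RTF2-deficient libraries (exact permutation, two-sided, p = 0.00216, which is the lowest value 6 against 6 allow). That permutation takes single libraries as units, though they are technical replicates, and so checks the labels only. Of 12 mesenchymal markers examined, all but Dcn and Lum were above 1 CPM in every library, and the sum of the 12 lay between 15896 and 24472 CPM. Of these, Prrx1 and Twist1 were lower by genotype over both lines (log2 fold change -0.47 and -0.27). Relative to WT line 1, Prrx1 and Twist1 were higher in WT line 2 (log2 fold change 0.60 and 0.29), and Pdgfrb, Col1a2 and Thy1 were lower (-0.94, -0.63 and -0.62). WT line 2 alone had male sex-linked expression, with the Y-linked Ddx3y between 91.8 and 107 CPM and Xist at no more than 0.132 CPM, while Xist was at least 103 CPM in every library of the other groups. The summed level of 12 interferon-stimulated genes was 644 to 6673 CPM in WT line 2, 126 to 2548 CPM in RTF2-deficient line 2, 68 to 385 CPM in WT line 1 and 64.5 to 139 CPM in RTF2-deficient line 1. In line 2, genotype and sex cannot be told apart, while the interferon levels of its genotypes overlapped. The part of the interferon level in the results was not tested.

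The members ranged from a highest value of 3462 CPM for Itgb1 to no count at all. A gene was tested where edgeR's filterByExpr kept it on the 4 groups, which 38 members did: 16 alpha integrins, all 8 beta integrins and 14 cadherins. The 11 that did not pass were Itgal and Itgax, which are alpha integrins of leukocytes, and Cdh5 (the endothelial VE-cadherin), Cdh7, Cdh8, Cdh9, Cdh12, Cdh16, Cdh19, Cdh20 and Cdh22. Itgal and Itgax reached at most 9 counts in a library and these cadherins at most 28, in the case of Cdh16. Cdh9 had no count in any library, which allows up to 3 counts in each, or 0.0762 CPM in the shallowest.

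To set genes side by side, levels were divided by the length of the longest coding transcript and averaged over the 12 libraries. The alpha integrins were led by Itga5 at 127 CPM per kilobase, followed by Itgav at 70.1, Itga11 at 33.3 and Itga3 at 26. Itgav is the subunit of the receptors for vitronectin and latent TGF-beta, and Itga11 is a collagen receptor of fibroblasts. On the mean length of a gene's coding transcripts, Itgav (160 CPM per kilobase) stood above Itga5 (127), and Itga3 (34.4) above Itga11 (33.3), so the order within these pairs rests on the transcript counted. Of the beta integrins, Itgb1, the partner of most alpha subunits, led with 752 CPM per kilobase, ahead of Itgb5 at 115 and Itgb3 at 7.24, both partners of Itgav. Cdh2 led the cadherins with 71.4 CPM per kilobase, followed by Cdh11 at 49.7 and Cdh10, a type II cadherin known from brain, at 13.6.

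Shares of a family's summed level moved between groups for some members and little for others. On the scale of level per length, Itgb1 made up 85.4% ± 2.58 (SD, n = 3) of the beta integrin sum in WT line 1, 86.1% ± 1.72 in RTF2-deficient line 1, 84.5% ± 2.15 in WT line 2 and 86.8% ± 1.52 in RTF2-deficient line 2. Itga5 held between 41% and 46.7% and Itgav between 22.5% and 27.1% of the alpha integrin sum, as group means. On the mean length of coding transcripts these shares were 30.1% to 33% for Itga5 and 37.7% to 43.7% for Itgav, so that Itgav held the larger one. On the longest transcript, Itga11 made up 19.3% ± 9.06 of the alpha integrin sum in WT line 1, 12% ± 7.11 in RTF2-deficient line 1, 9.95% ± 3.52 in WT line 2 and 6.11% ± 4.76 in RTF2-deficient line 2. Itga3 held between 5.83% and 11.6% and Itga6 between 1.9% and 4.23%, both lowest in WT line 1 and highest in WT line 2. Cdh2 held between 38% and 48.4% of the cadherin sum. Cdh11 made up 35.9% ± 5.9 and 33% ± 4.06 of the cadherin sum in WT and RTF2-deficient line 1, but 18.9% ± 2.26 in WT line 2 and 27.7% ± 6.2 in RTF2-deficient line 2. Cdh13, the membrane-anchored T-cadherin, took 14.5% ± 1.86 in WT line 2 and between 4.06% and 5.88% in the other groups. No test was run on these shares.

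**Figure D1:**
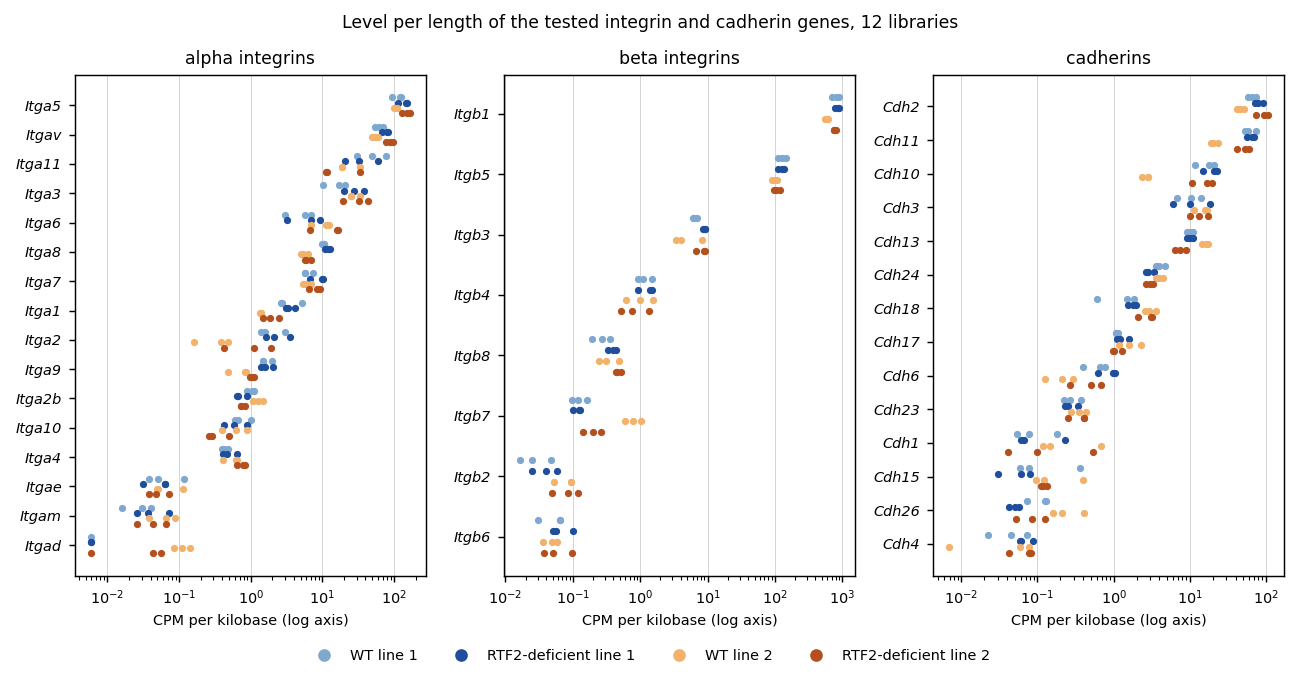
Level per length (CPM per kilobase of the longest coding transcript, log axis) of the 38 tested members in each of the 12 libraries, with 1 point per library, coloured by group, and genes ordered by their mean within each family. Itgb1, Itga5 and Cdh2 lead their families, and the WT line 2 points of Cdh10 and Cdh11 lie to the left of the other groups; values of 0, which only Itgad had, cannot be drawn on a log axis.

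RefSeq's table for GRCm38.p6 held a promoter for 31 of the 49 members. The 250 bases before the listed start are shown for Itga5 and Itgav, the leading alpha integrins, and for Cdh10, the tested member with the largest genotype difference in line 2. They lie at chr15:103366792-103367041 (minus strand) for Itga5, chr2:83724147-83724396 (plus strand) for Itgav and chr15:18820079-18820328 (plus strand) for Cdh10. The windows of Cdh10 and Itgav lie inside RefSeq's span of the gene, whose outermost start is further upstream. In GENCODE M21 the window of Cdh10 lies in an intron of 3 of its 6 transcripts, and no transcript of Itgav or Itga5 spans or overlaps the window. Capitals mark matches to a motif.
Itga5: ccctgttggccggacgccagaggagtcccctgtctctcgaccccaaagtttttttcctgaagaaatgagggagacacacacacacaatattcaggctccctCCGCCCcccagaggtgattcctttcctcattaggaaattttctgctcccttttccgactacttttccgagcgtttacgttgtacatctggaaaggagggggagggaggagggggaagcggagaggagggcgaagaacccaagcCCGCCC
Itgav: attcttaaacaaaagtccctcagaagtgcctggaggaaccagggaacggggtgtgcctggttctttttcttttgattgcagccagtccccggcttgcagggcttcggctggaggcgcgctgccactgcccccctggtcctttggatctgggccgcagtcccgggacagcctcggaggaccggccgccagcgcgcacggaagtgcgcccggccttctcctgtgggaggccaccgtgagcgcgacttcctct
Cdh10: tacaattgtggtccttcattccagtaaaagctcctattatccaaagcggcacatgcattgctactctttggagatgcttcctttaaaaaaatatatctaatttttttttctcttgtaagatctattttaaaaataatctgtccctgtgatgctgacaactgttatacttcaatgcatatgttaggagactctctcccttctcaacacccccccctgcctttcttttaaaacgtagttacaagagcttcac
Motifs were searched on both strands. The GC box was searched as GGGCGG. The TATA box was searched as the letters TATAAA. An E2 box, the kind of site bound by Snail and Zeb factors, was searched as CACCTG. Itga5 held 2 GC boxes, each read on the opposite strand, and none of the other motifs was found in the 3 windows. Among the 32817 promoter windows of the table, 32.7% held a GC box, 12.4% a TATA box and 17.2% the E2 box. The share of G and C was 55.6% for Itga5, 64.4% for Itgav and 36.8% for Cdh10. A match is a run of letters and not a measured binding site.

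Over both lines, with line as a term, 9 of the 38 tested members differed between genotypes (edgeR's quasi-likelihood test, Benjamini-Hochberg adjusted p under 0.05 over all 14263 genes). Cdh2, Cdh10, Itga5, Itga7 and Itgav were higher in RTF2-deficient MEFs, and Cdh24, Cdh26, Itga2b and Itgb7 were lower. The 5 higher members were 13.2% of those tested, beside 4.98% of all genes called higher, and the 4 lower were 10.5%, beside 8.18% of all genes. The median log2 fold change, RTF2-deficient over WT, was 0.194 for the 38 members and 0.002 for all genes. By family, 3 of 16 alpha integrins were higher and 1 lower, 1 of 8 beta integrins was lower, and 2 of 14 cadherins were higher and 2 lower. In bulk RNA, fewer cells of a type and less RNA per cell cannot be told apart.

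Itgav rose 1.41-fold in RTF2-deficient MEFs. Its level was 384, 491 and 437 CPM in WT line 1 and 474, 583 and 567 CPM in RTF2-deficient line 1, against 421, 345 and 384 CPM in WT line 2 and 621, 687 and 541 CPM in RTF2-deficient line 2. Within line 2 the groups did not overlap, and in line 1 a single WT library (491 CPM) lay above the lowest RTF2-deficient one. The log2 fold change was 0.50 (SE 0.103, adjusted p = 0.00816). Itga5, the fibronectin receptor subunit, stood at 406, 538 and 542 CPM in WT line 1, 502, 642 and 662 CPM in RTF2-deficient line 1, 433, 485 and 479 CPM in WT line 2 and 675, 742 and 566 CPM in RTF2-deficient line 2. The groups again overlapped in line 1 and were apart in line 2, with a log2 fold change of 0.39 (SE 0.104, adjusted p = 0.029). Itga7, a laminin receptor subunit of muscle, lay between 21.7 and 30.1 CPM in WT and between 26.4 and 40.5 CPM in RTF2-deficient libraries. Its difference was 0.45 on the log2 scale (SE 0.124, adjusted p = 0.0342).

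Of the beta partners of these subunits, Itgb1 and Itgb3 did not pass the test over both lines, where DESeq2 called both higher. Itgb1 stood at 2658, 3142 and 3426 CPM in WT line 1, 2951, 3259 and 3462 CPM in RTF2-deficient line 1, 2110, 2254 and 2337 CPM in WT line 2 and 2906, 3097 and 2833 CPM in RTF2-deficient line 2. The libraries of line 2 did not overlap between genotypes, while those of line 1 did (log2 fold change over both lines 0.23, SE 0.0944, adjusted p = 0.127). In line 2 its log2 fold change was 0.40 (SE 0.121, adjusted p = 0.0543), and it was called higher there by DESeq2, by edgeR with RLE size factors or with a filter of 1 CPM in 3 libraries, without replicate 1 of WT line 1, and without the first libraries of WT line 1, RTF2-deficient line 1 and WT line 2 and the third of RTF2-deficient line 2, which stood apart from their groups. Itgb5 stood at 424, 472 and 363 CPM in WT line 1, 420, 446 and 369 CPM in RTF2-deficient line 1, 359, 325 and 297 CPM in WT line 2 and 343, 321 and 387 CPM in RTF2-deficient line 2. Its groups overlapped in both lines, and its log2 fold change was 0.04 (SE 0.083, adjusted p = 0.81). Itgb3 stood at 36.6, 39.9 and 35.8 CPM in WT line 1, 50.1, 52.9 and 53.2 CPM in RTF2-deficient line 1, 47.8, 19.8 and 23.7 CPM in WT line 2 and 38.6, 53.2 and 50.9 CPM in RTF2-deficient line 2. Here the libraries of line 1 were apart and a single WT library of line 2 lay among the RTF2-deficient ones (log2 fold change 0.56, SE 0.18, adjusted p = 0.0622). Itga11 spread widely within every group, with 389, 247 and 153 CPM in WT line 1, 299, 161 and 102 CPM in RTF2-deficient line 1, 168, 94.6 and 93 CPM in WT line 2 and 55.3, 58.1 and 167 CPM in RTF2-deficient line 2 (log2 fold change -0.42, SE 0.352, adjusted p = 0.463).

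Cdh2 rose 1.55-fold over both lines. N-cadherin mRNA stood at 283, 359 and 315 CPM in WT line 1, 345, 450 and 385 CPM in RTF2-deficient line 1, 203, 253 and 225 CPM in WT line 2 and 521, 451 and 359 CPM in RTF2-deficient line 2. The genotypes overlapped by 1 WT library in line 1 and were apart in line 2, giving a log2 fold change of 0.64 (SE 0.142, adjusted p = 0.0122). Cdh10 was 2.57-fold higher over both lines (log2 fold change 1.36, SE 0.403, adjusted p = 0.0445), a value that joins unlike differences in the 2 lines.

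The 4 members that fell were expressed at lower levels. Cdh24, a type II cadherin, was between 12.4 and 16.6 CPM in the WT libraries and between 9.37 and 12 CPM in the RTF2-deficient libraries, with no overlap, and fell by 0.42 on the log2 scale (SE 0.0958, adjusted p = 0.0129). Itga2b, the fibrinogen receptor subunit of platelets, lay between 3.08 and 5.14 CPM in WT and between 2.23 and 3.08 CPM in RTF2-deficient libraries (log2 fold change -0.61, SE 0.129, adjusted p = 0.00872). Of 7 megakaryocyte and platelet markers, Pf4 and Treml1 had no count in any library and 5 stayed below 1 CPM throughout. None of the 3 tested differed by genotype over both lines, while between the WT lines Ppbp was higher (3.82) and Gp1bb lower (-1.83) in line 2. Their sum was 9.02 to 15 CPM in WT line 1, 7.75 to 12.3 CPM in RTF2-deficient line 1, 4.95 to 14.3 CPM in WT line 2 and 5.22 to 6.08 CPM in RTF2-deficient line 2.

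Cdh26, a cadherin known from epithelia, was near the lower limit of detection. It had 9, 15 and 15 counts in WT line 1 (0.215, 0.372 and 0.362 CPM), 7, 6 and 5 counts in RTF2-deficient line 1 (0.167, 0.147 and 0.122 CPM), 28, 54 and 20 counts in WT line 2 (0.608, 1.19 and 0.472 CPM) and 15, 6 and 11 counts in RTF2-deficient line 2 (0.361, 0.154 and 0.249 CPM). The WT libraries were above the RTF2-deficient ones in each line, with a log2 fold change of -1.36 (SE 0.311, adjusted p = 0.0128). Itgb7, the leukocyte partner of Itga4 and Itgae, had a log2 fold change of -1.17 over both lines (SE 0.352, adjusted p = 0.0465).

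**Figure D2:**
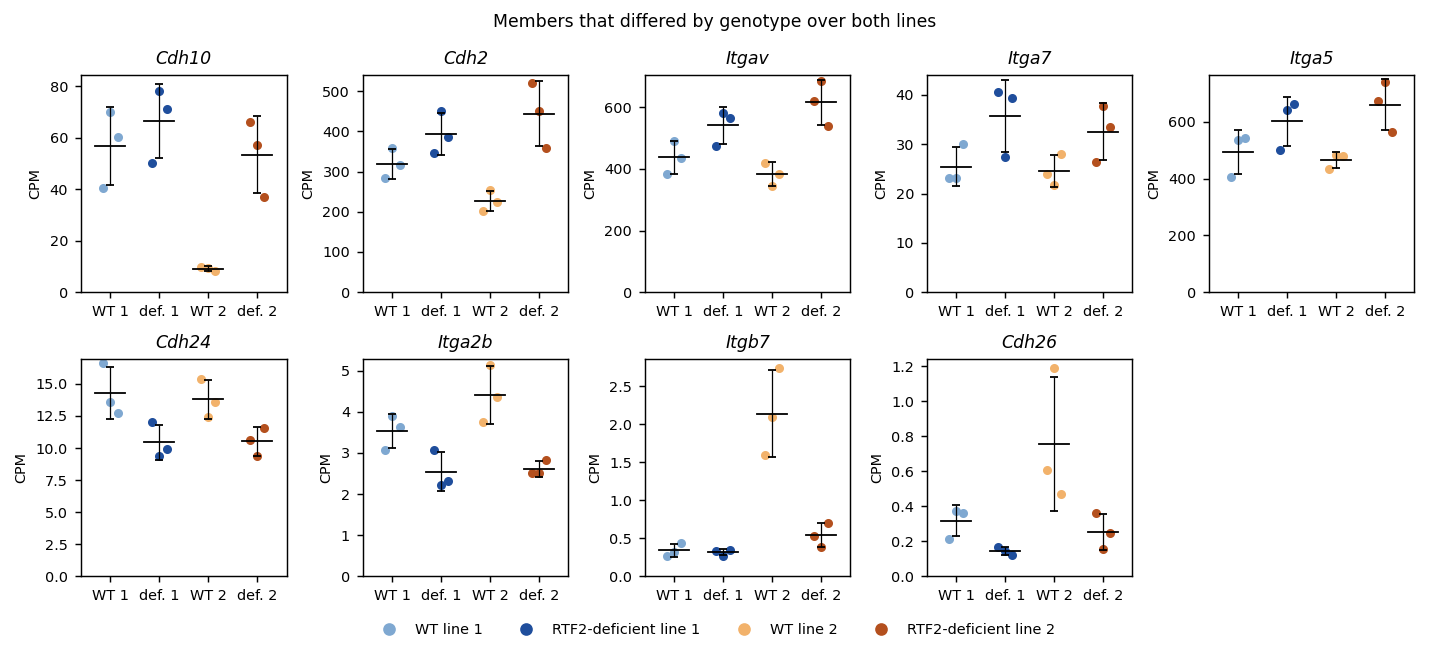
Normalized counts (CPM, each axis from 0) of the 9 members that differed by genotype over both lines, by group (WT 1, def. 1, WT 2 and def. 2 are WT and RTF2-deficient of line 1 and line 2). Points are libraries, horizontal bars means and error bars SD (n = 3); Cdh24 separates the genotypes in both lines, whereas for Cdh10 and Itgb7 only WT line 2 lies apart, at 8.12 to 9.75 CPM and 1.59 to 2.74 CPM.

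Of the 9 calls, 5 held when any single library was left out, namely Cdh2, Itgav, Itga2b, Cdh24 and Cdh26, with adjusted p of at most 0.0379. Itga5 stayed past the threshold in 4 of the 12 leave-one-out fits (adjusted p = 0.00984 to 0.0754) and lost it without WT line 1 replicate 1, any library of WT line 2, replicate 2 or 3 of RTF2-deficient line 1, or replicate 1 or 2 of RTF2-deficient line 2. Itga7 stayed in 5 of 12 (adjusted p = 0.0172 to 0.0879), and was lost without replicate 1 or 2 of either WT line, replicate 1 or 3 of RTF2-deficient line 1, or replicate 2 of RTF2-deficient line 2. Itgb7 stayed in 4 of 12 (adjusted p = 0.0302 to 0.131), and was lost without WT line 1 replicate 3, RTF2-deficient line 1 replicate 2 or any library of line 2. Cdh10 stayed in 3 of 12 (adjusted p = 0.0205 to 0.115), and was lost without WT line 1 replicate 1, RTF2-deficient line 1 replicate 2 or 3, or any library of line 2. With the 3 libraries of each group summed to 1 sample, none of the 9 passed (adjusted p = 0.127 to 0.372), and in that fit Rtf2 itself did not (adjusted p = 0.102).

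Within each line, the differences were not alike. In line 1 no member passed the test, beside 0.68% of all genes higher and 2.52% lower. At an unadjusted p under 0.05, Itga3, Itga7 and Itgav were higher and Cdh24, Cdh26 and Itga2b lower, 3 of 38 each way, beside 5.43% of all genes higher and 8.5% lower at that threshold. DESeq2 called 0 members in line 1, beside 1.78% of all genes higher and 4.19% lower. Same-numbered libraries of WT and RTF2-deficient line 1 deviated together, and with the replicate number as a block (a fit chosen after seeing the data) Cdh24 was lower in line 1 (log2 fold change -0.45, SE 0.0948, adjusted p = 0.0277) and 0 members were higher, beside 3.67% and 1.23% of all genes. Line 2 had 5 members higher (Cdh2, Cdh10, Cdh11, Itga5 and Itgav), beside 5.42% of all genes, and 4 lower (Cdh13, Cdh26, Itga2b and Itgb7), beside 7.03% of all genes. The median log2 fold change of the members was 0.215 in line 1 (0.006 for all genes) and 0.129 in line 2 (-0.003 for all genes).

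Cdh10 was the member with the largest rise in line 2. Its level was 40.3, 70.1 and 60.2 CPM in WT line 1, 50.3, 78.1 and 71 CPM in RTF2-deficient line 1, 9.75, 9.59 and 8.12 CPM in WT line 2 and 66.1, 57 and 36.9 CPM in RTF2-deficient line 2. The 3 libraries of WT line 2 lay below all 9 others, which overlapped. The log2 fold change was 2.54 in line 2 (SE 0.262, adjusted p = 0.000273) and 0.23 in line 1 (SE 0.244, adjusted p = 0.786), and these differed by 2.32 (interaction, SE 0.353, adjusted p = 0.0132). Of 8 neural and glial markers, 5 were tested, with a median log2 fold change of -0.572 between the WT lines (0.015 for all genes). Tubb3 was lower (log2 fold change -1.74) and Sox2 higher (1.98) in WT line 2 than in WT line 1, and Sox2 was lower by genotype in line 2 (-1.51) and over both lines (-0.85, adjusted p = 0.0499). The sum of the 8 was 273 to 408 CPM in WT line 2, 336 to 579 CPM in RTF2-deficient line 2, 382 to 620 CPM in WT line 1 and 364 to 519 CPM in RTF2-deficient line 1. Elavl3, Foxd3 and Sox10 stayed below 1 CPM in every library, and none of the 8 was at 0 throughout. Their part in the values of Cdh10 was not tested.

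Cdh11 had the same order of groups. OB-cadherin mRNA stood at 418, 301 and 334 CPM in WT line 1, 368, 323 and 390 CPM in RTF2-deficient line 1, 108, 113 and 134 CPM in WT line 2 and 236, 305 and 338 CPM in RTF2-deficient line 2. WT line 2 was again below the 9 other libraries. Its log2 fold change was 1.31 in line 2 (SE 0.158, adjusted p = 0.000592) and 0.04 in line 1 (SE 0.155, adjusted p = 0.957), with an interaction of 1.27 (SE 0.22, adjusted p = 0.0219). Without WT line 2 replicate 2, RTF2-deficient line 1 replicate 2 or RTF2-deficient line 2 replicate 2 the interaction of Cdh11 did not pass (adjusted p at most 0.064), and the difference within line 2 passed in all 12 leave-one-out fits.

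Cdh13 went the other way. T-cadherin mRNA stood at 38.4, 42.5 and 34.9 CPM in WT line 1, 38.3, 42.3 and 35 CPM in RTF2-deficient line 1, 65.3, 54.1 and 62.9 CPM in WT line 2 and 28, 24.5 and 34 CPM in RTF2-deficient line 2. WT line 2 lay above all 9 other libraries, and those of RTF2-deficient line 2 lay below all others. It fell by 1.08 on the log2 scale in line 2 (SE 0.131, adjusted p = 0.000617), and the interaction was -1.07 (SE 0.183, adjusted p = 0.0212). That interaction was lost without WT line 2 replicate 3, RTF2-deficient line 1 replicate 2, or replicate 1 or 2 of RTF2-deficient line 2 (adjusted p at most 0.0608). Cdh10 and Cdh11 were the 2 members whose interaction was called higher, beside 0.757% of all genes, and Cdh13 the 1 called lower, beside 0.533%.

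Itgb7 had 11, 13 and 18 counts in WT line 1 (0.263, 0.322 and 0.434 CPM), 14, 11 and 14 in RTF2-deficient line 1 (0.334, 0.27 and 0.341 CPM), 73, 95 and 116 in WT line 2 (1.59, 2.09 and 2.74 CPM) and 22, 15 and 31 in RTF2-deficient line 2 (0.529, 0.385 and 0.701 CPM). WT line 2 was above the 9 other libraries, and the groups of line 1 overlapped. The log2 fold change was -1.98 in line 2 (SE 0.295, adjusted p = 0.00184) and -0.11 in line 1 (SE 0.337, adjusted p = 0.941). Their difference of -1.87 did not pass the test (SE 0.446, adjusted p = 0.0877), where DESeq2 called the interaction lower, beside 1.18% of all genes.

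Differences of Cdh2, Itgav and Itga5 were in 1 direction in both lines. The log2 fold change of Cdh2 was 0.97 in line 2 (SE 0.153, adjusted p = 0.00259) and 0.30 in line 1 (SE 0.151, adjusted p = 0.429). That of Itgav was 0.69 in line 2 (SE 0.128, adjusted p = 0.00615) and 0.31 in line 1 (SE 0.128, adjusted p = 0.297). Itga5 had 0.50 in line 2 (SE 0.147, adjusted p = 0.0458) and 0.28 in line 1 (SE 0.146, adjusted p = 0.452). None of the 3 interactions passed (adjusted p = 0.259, 0.628 and 0.952). In line 2 the call of Itga5 held in 3 of 12 leave-one-out fits (adjusted p = 0.0215 to 0.181), being lost without any library of WT line 2, replicate 2 or 3 of either group of line 1, or replicate 1 or 2 of RTF2-deficient line 2. Those of Itga2b (log2 fold change -0.75, SE 0.178, adjusted p = 0.0188) and Cdh26 (-1.56, SE 0.419, adjusted p = 0.0329) held in 8 and 7 of 12. Itga2b was lost without WT line 2 replicate 2 or 3 or RTF2-deficient line 2 replicate 1 or 2 (adjusted p up to 0.0808), and Cdh26 without replicate 2 of any of the 4 groups or RTF2-deficient line 2 replicate 3 (adjusted p up to 0.143).

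**Figure D3:**
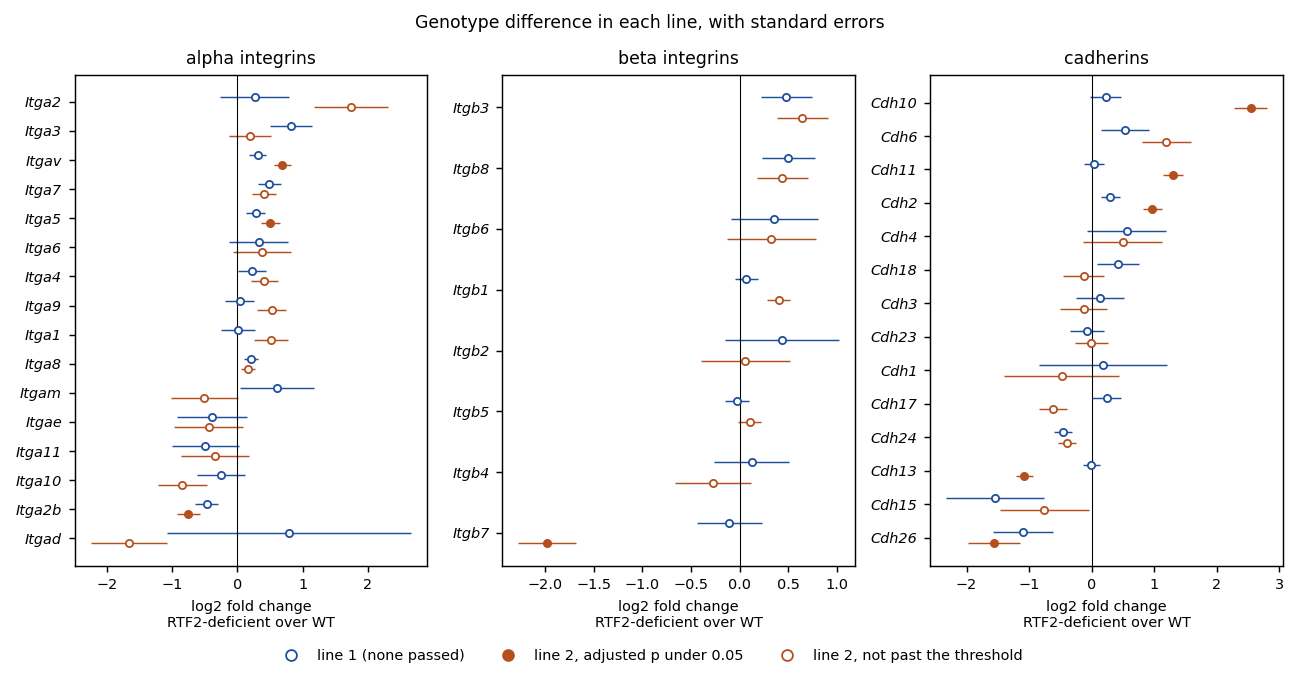
Log2 fold change (RTF2-deficient over WT) of the 38 tested members in line 1 and line 2, with bars for 1 standard error, grouped by family and ordered by the value over both lines; filled points passed the adjusted p threshold. Line 1 points lie near 0 for Cdh10, Cdh11, Cdh13 and Itgb7, whose line 2 points lie at 2.54, 1.31, -1.08 and -1.98.

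The WT groups themselves differed in 12 members. Relative to WT line 1, WT line 2 had 4 higher (Cdh13, Cdh18, Itgad and Itgb7), beside 6.7% of all genes, and 8 lower (Cdh6, Cdh10, Cdh11, Itga1, Itga2, Itga8, Itga9 and Itgb1), beside 7.31% of all genes. The 8 lower members were 21.1% of those tested. Same-numbered libraries of the WT groups deviated together as well, and with the replicate block chosen after seeing the data 7 members were higher, beside 9.98% of all genes, and 10 lower, beside 10.3%. The members added by that fit were Cdh26, Itga3 and Itga6, higher, and Cdh2 and Itgb5, lower. This comparison shares the WT line 2 libraries with the genotype comparison of line 2, so that a high or low WT line 2 enters both. The log2 fold change, line 2 over line 1, was -2.63 for Cdh10 (SE 0.263, adjusted p = 8.91e-05), -1.57 for Cdh11 (SE 0.159, adjusted p = 9.92e-05), 0.66 for Cdh13 (SE 0.13, adjusted p = 0.00658) and 2.64 for Itgb7 (SE 0.309, adjusted p = 0.000248). Itgb1 was 1.38-fold lower in WT line 2 (adjusted p = 0.0282), and lost the call without replicate 2 or 3 of WT line 1 or replicate 1 or 3 of WT line 2 (adjusted p up to 0.0902).

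The collagen receptor subunits Itga1 and Itga2 were lower in WT line 2. Itga2 stood at 21.8, 9.98 and 11.1 CPM in WT line 1, 25.2, 11.5 and 14.9 CPM in RTF2-deficient line 1, 3.41, 1.17 and 2.74 CPM in WT line 2 and 2.98, 8.01 and 13.5 CPM in RTF2-deficient line 2. Only 1 library of RTF2-deficient line 2 came within the range of WT line 2 (log2 fold change between the WT lines -2.55, SE 0.575, adjusted p = 0.0132). Itga1 stood at 56.9, 29.8 and 28.7 CPM in WT line 1, 46.2, 33.7 and 36.1 CPM in RTF2-deficient line 1, 15.2, 15.3 and 14.7 CPM in WT line 2 and 16.5, 20.5 and 27.7 CPM in RTF2-deficient line 2. Both groups of line 2 were below both groups of line 1 (-1.35, SE 0.264, adjusted p = 0.00622). These genes are neighbours on chromosome 13, 25979 bases apart with no coding gene between them.

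Itga9, a subunit that binds tenascin-C, had 14.1, 10.3 and 10.4 CPM in WT line 1, 14.4, 9.88 and 11.3 CPM in RTF2-deficient line 1, 3.39, 5.84 and 6.12 CPM in WT line 2 and 7.39, 7.88 and 6.78 CPM in RTF2-deficient line 2. All 6 libraries of line 2 were below those of line 1 (WT lines, log2 fold change -1.18, SE 0.226, adjusted p = 0.00547). Itga8, a subunit that binds nephronectin, was lower in line 2 in both genotypes, with log2 fold changes of -0.88 between the WT groups (SE 0.105, adjusted p = 0.00028) and -0.94 between the RTF2-deficient groups (SE 0.105, adjusted p = 0.00104). It was the only member that differed between the RTF2-deficient lines, where 0 of 38 were higher, beside 1.09% of all genes, and 1 was lower, beside 0.841%. At an unadjusted p under 0.05, 4 members were higher there, beside 6.66% of all genes, and 6 lower, beside 6.74%. DESeq2 called 0 higher, beside 2.36% of all genes, and 2 lower (Itga1 and Itga8), beside 2.51%.

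Cdh6 had 6.33, 3.2 and 5.33 CPM in WT line 1, 7.93, 5.15 and 8.48 CPM in RTF2-deficient line 1, 2.39, 1.04 and 1.72 CPM in WT line 2 and 2.21, 4.11 and 5.49 CPM in RTF2-deficient line 2. This cadherin, known from kidney, was lowest in WT line 2, which overlapped with RTF2-deficient line 2 (WT lines, -1.53, SE 0.397, adjusted p = 0.0267). Without WT line 1 replicate 1 or 3 or WT line 2 replicate 2 or 3 it was not called (adjusted p up to 0.0772). Cdh18, a type II cadherin of brain, had 1.65, 4.16 and 5.04 CPM in WT line 1, 4.2, 4.98 and 5.36 CPM in RTF2-deficient line 1, 7.04, 8.09 and 9.73 CPM in WT line 2 and 8.73, 8.39 and 5.65 CPM in RTF2-deficient line 2. All libraries of line 2 were above those of line 1 (WT lines, 1.20, SE 0.332, adjusted p = 0.0354). The call of Cdh18 held in 5 of 12 leave-one-out fits (adjusted p = 0.0231 to 0.107), being lost without WT line 1 replicate 2, any library of WT line 2, replicate 2 or 3 of RTF2-deficient line 1 or replicate 2 of RTF2-deficient line 2.

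Itgad, a leukocyte integrin that pairs with Itgb2, was scarcely detected outside line 2. It had 1, 0 and 0 counts in WT line 1, 1, 0 and 1 in RTF2-deficient line 1, 21, 16 and 25 in WT line 2 and 1, 9 and 8 in RTF2-deficient line 2. The 62 counts in WT line 2 against 1 in WT line 1 give a ratio of 59.9 per total count, with an exact 95% interval of 10.4 to 2402 that covers counting error only. Itgad passed the filter only through WT line 2 and so had to differ from the other groups, and its call is given as a description. Exons of Itgad share 388 bases with 4931431B13Rik, 330 with Gm17831, 102 with Gm39091 and 70 with Cox6a2, and whether the counting used strand is not given in the sources used here. Beside Itgad and Itgb7, the summed level of 10 leukocyte markers was 7.92 to 10.9 CPM in WT line 2, 5.58 to 7.29 CPM in RTF2-deficient line 2, 3.07 to 4.44 CPM in WT line 1 and 3.24 to 4.17 CPM in RTF2-deficient line 1. Of these markers 6, including Ptprc, the pan-leukocyte CD45, stayed below 1 CPM in every library and none was at 0 throughout. Cd68 (log2 fold change 2.01) and Coro1a (0.78) were higher in WT line 2 than in WT line 1, and Cd68 was lower by genotype in line 2 (-1.07, adjusted p = 0.00809). The part of sex-linked expression, interferon-stimulated genes and leukocyte markers in the differences of WT line 2 was not tested.

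**Figure D4:**
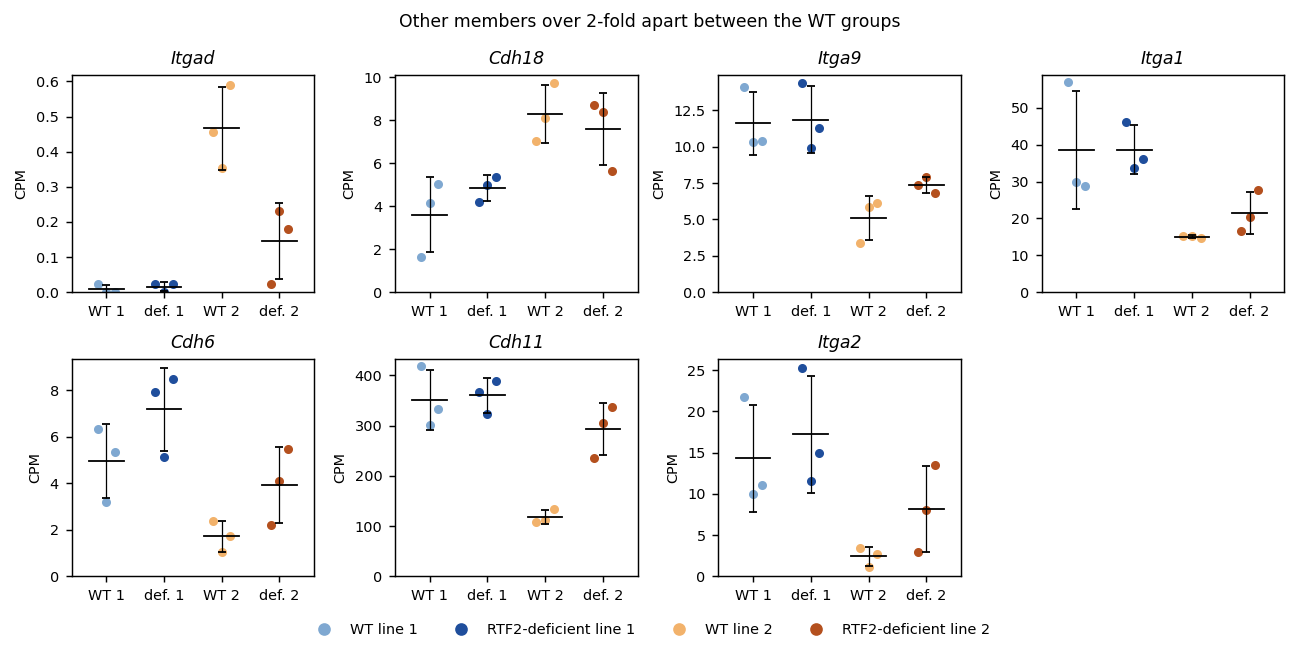
Normalized counts (CPM, each axis from 0) of the 7 members called and over 2-fold apart between WT line 2 and WT line 1 that are not in the plot of genotype differences, by group, with means as horizontal bars and SD (n = 3) as error bars. Itgad and Cdh18 are high in WT line 2 and the other members low there, and for Itga9, Itga1 and Cdh18 both groups of line 2 lie apart from line 1.

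The members described next were called in none of the 6 comparisons by edgeR with all libraries and no block, nor by DESeq2. Among the laminin receptor subunits, Itga3 lay between 50 and 210 CPM and Itga6 between 12.9 and 72.1 CPM, with log2 fold changes over both lines of 0.50 (SE 0.241, adjusted p = 0.192) and 0.35 (SE 0.304, adjusted p = 0.477). Itgb4, the hemidesmosomal beta subunit that pairs with Itga6, lay between 3.2 and 9.71 CPM. Itga10, a collagen receptor subunit of cartilage, lay between 1.32 and 5.04 CPM and Itga4, which binds fibronectin and Vcam1, between 3.91 and 8.13 CPM. The Itgav partners Itgb6 and Itgb8 lay between 0.149 and 0.478 CPM and between 1.64 and 4.35 CPM. The leukocyte subunits Itgae, Itgam and Itgb2 did not exceed 0.454, 0.413 and 0.359 CPM in any library, so that the beta subunit known to pair with Itgad was itself near the floor. Of the cadherins, Cdh17, known from intestine, lay between 3.36 and 7.85 CPM, Cdh23, known from hair cells of the ear, between 2.44 and 4.75 CPM, and Cdh4 (R-cadherin) between 0.0434 and 0.561 CPM.

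Libraries of 1 group were not alike, and this touched several members. A principal component of the deviations from group means, computed over all tested genes, held 48.6% of their variance and set apart replicate 1 of WT line 1, of WT line 2 and of RTF2-deficient line 1 and replicate 3 of RTF2-deficient line 2. These 4 libraries also had the highest interferon-stimulated sum of their groups, at 385, 6673, 139 and 2548 CPM. In all 4 groups, 7 of the 38 members (18.4%) had their highest value in that library, beside 15.4% of all genes. These were Cdh1, Cdh3, Cdh24, Itga2, Itga10, Itga11 and Itgb4. Cdh1 was 2.76 to 7.67 times, Itga11 1.79 to 2.94 times and Itga2 1.74 to 2.46 times the mean of the other libraries of the group. Another 8 members (21.1%, beside 15.7% of all genes) had their lowest value there, namely Cdh2, Cdh4, Cdh18, Cdh23, Itga3, Itga5, Itga6 and Itgb1. Itga6, a laminin receptor subunit, was at 0.385 to 0.589 times the other libraries. These values are descriptions of single libraries, and no groups were formed from them.

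Without those 4 libraries 37 members were tested. Over both lines 7 of them were higher in RTF2-deficient MEFs, beside 5.76% of all genes, and 5 lower, beside 9.4%. Itga1, Itga3, Itga6 and Itgb3 were then called higher and Itga11 lower, with Itga7 (adjusted p = 0.179) and Cdh10 (adjusted p = 0.0812) no longer past the threshold. In line 2, 7 were higher, beside 8.84% of all genes, and 5 lower, beside 12.1%, and Cdh26 was not called (adjusted p = 0.0639). No member was called in line 1. Between the RTF2-deficient lines 2 were higher, beside 1.47% of all genes, and 3 lower, beside 1.97%, against 0 and 1 with all libraries, and the interaction of Cdh11 did not pass (adjusted p = 0.0715).

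Cdh1, the epithelial cadherin, lay between 0.18 and 3 CPM, and Cdh3 (P-cadherin) between 26.3 and 80.1 CPM. They are neighbours on chromosome 8, 46439 bases apart. Neither differed by genotype over both lines (log2 fold change -0.18, SE 0.668, for Cdh1 and 0.0032, SE 0.259, for Cdh3). Of 12 epithelial markers, 9 stayed below 1 CPM in every library, Epcam, Cldn4 and Krt8 among them, and none was at 0 throughout. Of the 8 tested, Cldn4 (log2 fold change 3.66, SE 0.707, adjusted p = 0.00417) and Krt18 (0.74, SE 0.211, adjusted p = 0.0381) were higher by genotype over both lines, beside 4.98% of all genes, and 0 lower, beside 8.18%. Krt18 (1.94) and Krt8 (3.52) were higher in WT line 2 than in WT line 1, beside 6.7% of all genes. Below 1 CPM throughout, Cldn4 and Krt8 may have passed the filter only through groups where they were high. The calls of Cldn4 and Krt8 are therefore given as a description. The 12 markers summed to 23.4 to 46.7 CPM in WT line 1, 21.9 to 49.9 CPM in RTF2-deficient line 1, 46.2 to 91 CPM in WT line 2 and 34.2 to 84.2 CPM in RTF2-deficient line 2.

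Partners and ligands of the members were read from lists and are given as counts, beside 4.98% of all genes called higher and 8.18% lower over both lines. Of 35 tested integrin activators, linkers and focal adhesion proteins, 2 were higher over both lines, the focal adhesion kinase Ptk2 (log2 fold change 0.18, SE 0.0529, adjusted p = 0.0427) and the tensin Tns1 (0.74, SE 0.176, adjusted p = 0.0172). The lines differed for Tns1 (interaction 1.07, SE 0.163, adjusted p = 0.0132), which was called in line 2 (1.27) and not in line 1, and was lower in WT line 2 than in WT line 1 (-1.50). The 1 lower was Sharpin, an inhibitor of integrin activation (-0.44, SE 0.0751, adjusted p = 0.00242). The median of that list was 0.069. Of 13 tested catenins and armadillo proteins, 3 were higher and none lower (median 0.133), namely the plakoglobin Jup (0.25, adjusted p = 0.0458) and the plakophilins Pkp1 (1.02, adjusted p = 0.00218) and Pkp2 (0.48, adjusted p = 0.0368). Of 23 tested integrin ligands, 4 were higher and none lower (median 0.209): tenascin-C (Tnc, 0.70, adjusted p = 0.0277), the laminin chains Lama2 (0.58, adjusted p = 0.0428) and Lamb1 (0.46, adjusted p = 0.0143), and Ccn2 (0.44, adjusted p = 0.0322). Among 12 tested regulators of the cadherin switch, only Twist1 differed and was lower (-0.27, SE 0.0758, adjusted p = 0.034), with a list median of -0.099. Except for Pkp1, these genes are named because their counts are small, after their values were seen.

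In line 1 no gene of these 4 lists was called. In line 2, 2 focal adhesion genes were higher and 1 lower, 2 catenin genes were higher, 4 ligand genes were higher and 1 lower, and of the regulators Zeb2 was higher and Twist1 lower, beside 5.42% of all genes higher and 7.03% lower. All 3 tested desmosomal cadherins, Dsc2, Dsc3 and Dsg2, were higher in WT line 2 than in WT line 1 (log2 fold change 1.67, 4.62 and 3.45), beside 6.7% of all genes. None differed by genotype over both lines (0 of 3, list median 0.457). The list of 6 summed to 0.645 to 1.06 CPM in WT line 1 and 3.13 to 4.39 CPM in WT line 2, and to 0.788 to 1.08 CPM and 2.93 to 4.86 CPM in RTF2-deficient lines 1 and 2. Dsc3 stayed below 1 CPM in every library. Genes this low in line 1 may have passed the filter only through line 2, so the 3 calls are given as a description. Dsc2 was also higher in RTF2-deficient line 2 than in RTF2-deficient line 1 (2.05, adjusted p = 0.0112), beside 1.09% of all genes.

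Skeletal muscle markers were read beside Itga7 and Cdh15, both known from muscle. Cdh15 (M-cadherin) lay between 0.0975 and 1.28 CPM and did not pass over both lines (log2 fold change -1.11, SE 0.517, adjusted p = 0.178). Of 10 muscle markers, Ckm had no count in any library and 6 stayed below 1 CPM. Of the 5 tested, 1 was higher by genotype over both lines and 0 lower (list median -0.12), beside 4.98% and 8.18% of all genes. This was Chrna1, the muscle acetylcholine receptor subunit (log2 fold change 1.47, SE 0.422, adjusted p = 0.039). It was higher in line 2 (2.71, SE 0.338, adjusted p = 0.000693), with an interaction of 2.33 (SE 0.45, adjusted p = 0.0344). Chrna1 (-2.57) and Myod1 (-5.99) were lower in WT line 2 than in WT line 1, beside 7.31% of all genes. Des was higher in RTF2-deficient line 2 than in RTF2-deficient line 1 (1.855), beside 1.09%. The 10 markers summed to 24.4 to 35.2 CPM in WT line 1, 22.8 to 35.1 CPM in RTF2-deficient line 1, 22.5 to 44.2 CPM in WT line 2 and 39 to 49 CPM in RTF2-deficient line 2. Of 10 endothelial markers, 4 were below 1 CPM throughout, Pecam1 among them, and none was at 0 throughout. Kdr was higher (0.58, adjusted p = 0.0492) and Egfl7 lower (-0.40, adjusted p = 0.0349) by genotype over both lines. Their sum was 42.8 to 45.9 CPM in WT line 1, 48.9 to 56.6 CPM in RTF2-deficient line 1, 42.3 to 49.9 CPM in WT line 2 and 52.7 to 61.2 CPM in RTF2-deficient line 2. The part of these cell types in the members' values was not tested.

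Positions are from RefSeq's annotation of GRCm38.p6 and shared exons from GENCODE M21 on the same build. Chromosome 8 held 9 members, chromosome 2 held 8 and chromosome 15 held 7. Itgam, Itgax and Itgad follow each other on chromosome 7, 11035 and 23276 bases apart. Some members share exons with other annotated genes, so that their counts depend on how reads were divided. Itgam shares 3450 of its 5024 exonic bases with Gm49368 and Itga10 shares 1739 of 5186 with Gm42957, both on the same strand. Itgav shares 634 of 10744 with the antisense Gm13684.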

How the data were processed

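RNA from 12 MEF libraries was sequenced (4 groups of 3). The file deposited holds raw counts, whole and not normalized, with genes as Entrez Gene numbers and a column for each library. For these single-read libraries the study's methods describe Salmon with UCSC mm10 gene models and tximport, but HTSeq and mm10 stand in the submitters' processing notes, and which of them made the deposited counts could not be settled. No source used here gives poly(A) selection or strand. RefSeq's GRCm38.p6 annotation gave symbols for 24045 of 24100 identifiers, and GENCODE M21 gave transcript lengths. Counts were analysed in R 4.3.3 with edgeR 4.0.16 (filterByExpr on the 4 groups, TMM, glmQLFit and glmQLFTest), with line and genotype as terms over both lines and a layout of the 4 groups for the other 5 comparisons. A gene was called at an adjusted p (Benjamini-Hochberg, over all 14263 genes tested) under 0.05. CPM values are TMM-normalized, and 3 counts were the floor for a gene at 0. Counting intervals and floors cover counting error only.

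Every member is accounted for. Values per library are given for the 11 members called and past a log2 size of 1 in any of the 6 comparisons and for the 3 genes of each family with the highest level per length. The members and lists were chosen with earlier results of these data known. List genes are named by the same size rule over both lines, or where a count is small. The fits were checked on simulated data. DESeq2 1.42.0, RLE and upper-quartile factors, other filters, a replicate block, no line term, the mean of both lines' effects, summed triplicates and leaving out each library were the alternatives, and leaving out 4 libraries together and a block over 3 groups were added after seeing the data. Replicate numbers come from the sample titles. In the 9 same-numbered pairs among WT line 1, RTF2-deficient line 1 and WT line 2, deviations from group means correlated between 0.287 and 0.625, against at most 0.0657 for other numbers, so the numbers were taken to pair these 3 groups. RTF2-deficient line 2 was not paired by the same numbers, and its libraries 3, 1 and 2 went with replicates 1, 2 and 3 of the others. Part of the neural and glial marker list is not reported here.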

Additional observations from a re-analysis of the deposited data

Results flagged for a closer look

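For 3 cadherins the genotype effect in line 2 differed from that in line 1, by the interaction term of edgeR's quasi-likelihood test. The log2 fold change of line 2 minus that of line 1 was 2.32 for Cdh10 (adjusted p = 0.0132), 1.27 for Cdh11 (adjusted p = 0.0219) and -1.07 for Cdh13 (adjusted p = 0.0212). Of all genes, 0.757% had a higher and 0.533% a lower interaction. The call of Cdh10 held in all 12 leave-one-out fits, that of Cdh11 in 9 and that of Cdh13 in 8. Without the 4 libraries that stand apart, Cdh11 did not pass (adjusted p = 0.0715). In each of the 3 cadherins the 3 WT line 2 libraries lay outside the range of the 9 others. The part of the sex-linked difference of WT line 2 in these values was not tested.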

How the results depend on the processing

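RLE and upper-quartile factors, no filter and a filter of 1 CPM in 3 libraries left every count of called members within 1.5 times the reported one, and no called member changed sign under any alternative run. DESeq2 gave 9 members higher over both lines, 8 higher in line 2, 2 with a lower interaction and 2 lower between the RTF2-deficient lines, beside 9.09%, 8.59%, 1.18% and 2.51% of all genes. Without the line term 2 were lower over both lines, beside 6.18% of all genes. With summed triplicates, where 4 samples remain, 0 were higher and 0 lower, and as 0% of all genes were called either way this says nothing of the members. Without the line term Cdh10, Cdh26 and Itgb7 were not called over both lines, and without a filter Itgb7 was not. Leaving out the 4 libraries that stand apart gave 1 member with a higher interaction (1.07% of all genes), and 2 higher (1.47%) and 3 lower (1.97%) between the RTF2-deficient lines; the cause was not tested. Leaving out 1 library gave 2 to 5 members higher over both lines (2.31% to 5.74% of all genes), 2 to 5 lower in line 2 (3.11% to 9.14%), 1 to 2 with a higher (0.235% to 0.623%) and 0 to 1 with a lower interaction (0.221% to 0.512%), and 1 to 2 lower between the RTF2-deficient lines (0.249% to 1.34%). Same-numbered pairs with RTF2-deficient line 2 correlated between -0.587 and 0.17, so the same numbers did not pair that group. Its libraries 3, 1 and 2 correlated with replicates 1, 2 and 3 of each other group, at 0.334 to 0.654. No fit with that shifted order was run, and the block over all 4 groups does not follow it. With the replicate block over the other 3 groups (added after seeing the data), 1 member was lower in line 1 (3.67% of all genes) and 7 were higher in WT line 2 (9.98%). With the replicate block over all 4 groups, 4 members were higher and 3 lower over both lines, beside 4.07% and 7.47% of all genes, where Itgb7 (adjusted p = 0.0586) and Cdh10 (adjusted p = 0.0684) did not pass, nor did Cdh26 in line 2 (adjusted p = 0.0599). Neither block ended another reported call of a member.
On mean transcript length Itgav stood at 160, Itgb1 at 1268 and Itgb5 at 134 CPM per kilobase.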
